A study of Mus musculus with 2 samples.

Results

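The 7 mouse genes described here encode the chains of haemoglobin: the alpha-type genes Hba-x, Hba-a1 and Hba-a2 and the beta-type genes Hbb-y, Hbb-bh1, Hbb-bt and Hbb-bs. They were chosen by gene symbol, and all 7 were found among the 31253 genes of both deposited matrices. The matrices hold single-cell RNA sequencing counts from brain tissue of mouse embryos at stage E12.5, after a sort with microbeads against CD31, a surface protein of endothelial and some blood cells. There was 1 library of genotype Foxq1flox/flox, which carries floxed alleles of the forkhead transcription factor gene Foxq1, and 1 library of genotype Foxq1iECKO, the knockout library of the comparison. The Cre line, the inducing treatment, the strain and the number of embryos behind each library were not given in the sources used here. Cells were captured in microwells, and the 3′ end of each transcript was tagged with a unique molecular identifier (UMI), so that 1 UMI stands for 1 captured transcript.

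The Foxq1flox/flox library held 15837 barcodes and 76580165 UMIs, and the Foxq1iECKO library 15108 barcodes and 72445925 UMIs. The median barcode had 3836 and 3660 UMIs. Values below are given in that order, Foxq1flox/flox first, and every log2 ratio is Foxq1iECKO over Foxq1flox/flox. Levels are in CPM, a gene's UMIs scaled to a fixed total over the cells summed. Brackets hold 95% intervals that cover counting error only. UMIs from 1 barcode are not independent of each other, so for genes as unevenly spread as the globins these intervals are narrower than the true error. With 1 library per genotype there was no test, no p-value and no replicate check. A gene or share was called higher or lower by size when the ratio was at least 1.5 and its interval excluded 1. In endothelial-like cells Foxq1 itself was at 433 and 147 CPM, from 7386 and 1602 UMIs, a log2 ratio of -1.56 [-1.64, -1.48], and which part of the gene the floxed allele removes was not given in the sources used here. The libraries had 270 barcode sequences in common, of which 2 held globin UMIs in both.

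Haemoglobin binds oxygen through the haem group carried by each of its alpha-type and beta-type chains. In the mouse embryo the first red cells to circulate are primitive cells from the yolk sac, which make the embryonic chains zeta (Hba-x), epsilon-y (Hbb-y) and beta-H1 (Hbb-bh1) beside adult alpha chains. Definitive red cells, which come from the fetal liver and begin to enter the blood around the stage studied here, make the adult alpha chains (Hba-a1, Hba-a2) and adult beta chains (Hbb-bt, Hbb-bs). Primitive cells change from Hbb-bh1 to Hbb-y and then begin to use the adult beta genes as they mature.

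Because the assay reads the 3′ ends of transcripts, how well the members can be told apart depends on their last bases, which are shown here. Sequences are from the transcripts of GENCODE release M21 (build GRCm38), 5′ to 3′, with positions counted from 1 at the A of the start codon. Hba-a1 and Hba-a2 differ at a single coding base (C381T, Hba-a1 first), capitalised in the windows of coding bases 361 to 401:
Hba-a1: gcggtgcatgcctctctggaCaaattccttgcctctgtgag
Hba-a2: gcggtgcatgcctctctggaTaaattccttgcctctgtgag
After the stop codon their annotated transcripts have 0 differences in 74 aligned bases, and that of Hba-a2 runs 16 bases further. How the authors' counting treated reads that align to both genes was not given in the sources used here. The division between Hba-a1 and Hba-a2 is therefore uncertain. Were such reads left out, the sum of the pair would be too low, and shares that use adult alpha UMIs would be off as well. Hbb-bt and Hbb-bs also have a single coding difference (T417C, Hbb-bt first), shown in coding bases 397 to 437:
Hbb-bt: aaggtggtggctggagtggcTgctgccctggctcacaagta
Hbb-bs: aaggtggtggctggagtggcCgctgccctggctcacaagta
In contrast to the alpha pair, these genes have 33 differences in 128 aligned bases after the stop codon, within reach of 3′ reads. The embryonic genes stand further from the adult ones. The last 60 coding bases of an embryonic and an adult gene of each type are shown with the bases that differ in capitals, 28 for the alpha-type pair and 9 for the beta-type pair:
Hba-x: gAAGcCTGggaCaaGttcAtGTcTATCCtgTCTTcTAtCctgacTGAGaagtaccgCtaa
Hba-a2: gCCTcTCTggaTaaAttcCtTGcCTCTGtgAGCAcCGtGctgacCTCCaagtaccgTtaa
Hbb-y: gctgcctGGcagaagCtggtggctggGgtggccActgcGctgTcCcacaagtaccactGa
Hbb-bs: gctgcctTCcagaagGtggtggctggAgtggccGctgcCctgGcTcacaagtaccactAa
Over all coding bases Hba-x and Hba-a2 were 61.8% identical, and Hbb-y and Hbb-bs 74.3%.

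The members lie in 2 clusters, with the embryonic genes ahead of the adult genes along the transcribed strand. On chromosome 11, on the plus strand of GRCm38, Hba-x spans 32276400 to 32278116, Hba-a1 32283511 to 32284465 and Hba-a2 32296489 to 32297298. On chromosome 7, on the minus strand, Hbb-y spans 103851749 to 103853216, Hbb-bh1 103841637 to 103843164, Hbb-bs 103826534 to 103828096 and Hbb-bt 103812524 to 103813996. RefSeq's promoter table for GRCm38.p6 had an entry for 6 of the 7 members. The stretches of those windows that lie outside the GENCODE gene are shown for an adult and an embryonic gene. Both genes were lower by size over all barcodes of the Foxq1iECKO library, but not in the cells gated on erythroid markers described below. The letters CACCC (the CACCC box), the letters CCAAT (the CCAAT box) and, in the second, the letters ATAAA are in capitals:
Hba-a2, chr11:32296372-32296488, plus strand: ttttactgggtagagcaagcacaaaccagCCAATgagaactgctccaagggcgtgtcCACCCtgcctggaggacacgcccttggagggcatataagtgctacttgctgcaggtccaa
Hbb-y, chr7:103853217-103853327, minus strand: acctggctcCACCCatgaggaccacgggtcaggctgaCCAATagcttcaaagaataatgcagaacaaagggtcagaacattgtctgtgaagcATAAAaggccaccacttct
CACCC began 63 bases before the RefSeq start of Hba-a2 and 111 bases before that of Hbb-y, and CCAAT 91 and 83 bases before them. These are common letters: with both strands read, CACCC was in 31.7%, CCAAT in 21.3% and ATAAA in 20.2% of 32851 promoter windows of 120 bases. The motifs do not overlap one another, and a match is a description, not a site of binding.

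Globin transcripts were lower in the Foxq1iECKO library, and 6 of the 7 genes were past the size rule. Over all barcodes the 7 genes together had 24468 and 12091 UMIs, which is 320 and 167 CPM and a log2 ratio of -0.94 [-0.97, -0.91]. Of 14531 genes measured over all barcodes (at least 1 CPM in either library), 2.35% were lower by size. Most globin UMIs came from few barcodes, which are described next by gene and then by barcode.

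Among the embryonic genes, Hbb-y, the main embryonic beta-type gene, had 4871 and 2131 UMIs. Its level was 63.6 and 29.4 CPM, a log2 ratio of -1.11 [-1.19, -1.04]. Hba-x, the embryonic alpha-type gene, had 1496 and 736 UMIs, or 19.5 and 10.2 CPM, a log2 ratio of -0.94 [-1.07, -0.81]. Hbb-bh1, the earliest beta-type gene, was the scarcest member in both libraries, with 159 and 102 UMIs in 55 and 28 barcodes. Its level of 2.08 and 1.41 CPM gave a log2 ratio of -0.56 [-0.93, -0.19], short of the size rule. It made up 3.16% and 4.57% of embryonic beta-type UMIs, so Hbb-y accounted for nearly all of them.

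Among the adult genes, Hba-a2 was the most abundant member as counted in both libraries, with 8284 and 4524 UMIs. Its level was 108 and 62.4 CPM, a log2 ratio of -0.79 [-0.85, -0.74]. Hba-a1 was counted at 1271 and 714 UMIs, a log2 ratio of -0.75 [-0.89, -0.62], and held 13.3% [12.6, 14.0] and 13.6% [12.7, 14.6] of the adult alpha UMIs. Hbb-bs had 4688 and 2236 UMIs, or 61.2 and 30.9 CPM, a log2 ratio of -0.99 [-1.06, -0.91]. Hbb-bt had 3699 and 1648 UMIs, or 48.3 and 22.7 CPM, a log2 ratio of -1.09 [-1.17, -1.002]. These levels are counts of 3′ ends and are not divided by transcript length.

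**Figure D1:**
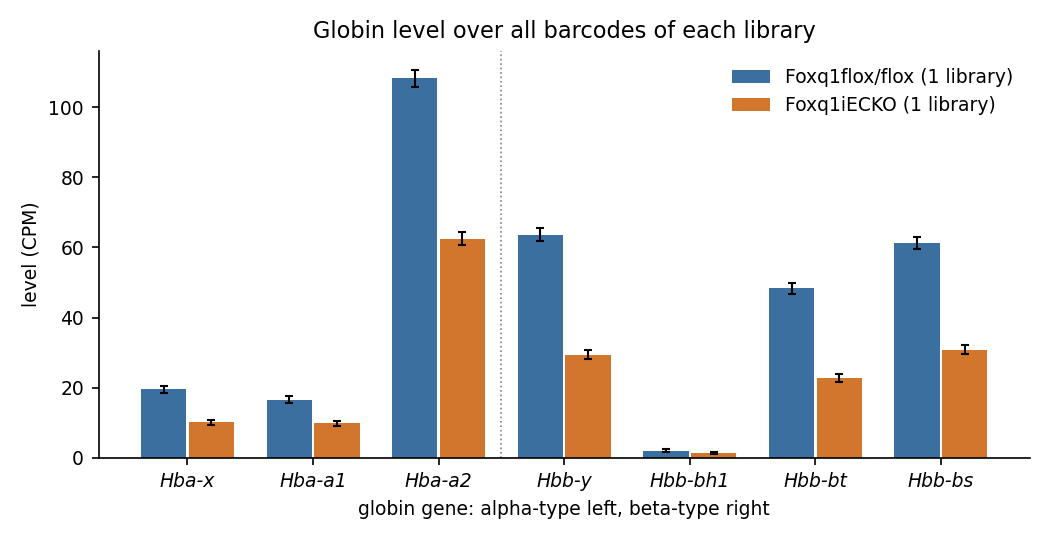
Level of each globin gene over all barcodes of each library, in CPM (vertical axis), with 95% counting intervals as error bars and 1 library per bar. Hba-a2 was highest (108 and 62.4 CPM) and Hbb-bh1 lowest (2.08 and 1.41 CPM), and each bar of the Foxq1iECKO library is lower than its partner.

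The composition of the globin pool moved less than its amount. Adult genes gave 62.5% [61.7, 63.3] and 63.5% [62.3, 64.7] of beta-type UMIs. Hba-x gave 13.5% [12.9, 14.2] and 12.3% [11.5, 13.2] of alpha-type UMIs. Alpha-type genes gave 45.2% [44.5, 45.8] and 49.4% [48.5, 50.3] of all globin UMIs, and Hbb-bt gave 44.1% [43.0, 45.2] and 42.4% [40.9, 44.0] of adult beta UMIs. None of these shares differed by 1.5-fold between the libraries. Of the other globin-family genes listed, Hbb-bh2, Hbq1a and Hbq1b were almost absent, with at most 2 UMIs in either library. Myoglobin (Mb) had 10 and 18 UMIs and neuroglobin (Ngb) 1 and 5. Cytoglobin (Cygb), a globin of fibroblasts and other non-blood cells, had 246 and 181 UMIs.

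Globin UMIs were concentrated in few barcodes. No globin UMI was found in 93.3% and 95.4% of barcodes, 724 and 440 barcodes had 1 or 2, and the highest had 693 and 521. Barcodes with at least 20 globin UMIs are called globin-rich here. There were 148 (0.935%) and 100 (0.662%) of them, a log2 ratio of shares of -0.50 [-0.88, -0.12] that does not reach the size rule, and they held 90.9% and 87.5% of all globin UMIs. Their median globin content was 116.5 and 65 UMIs. Without them the level over all barcodes was 29.7 and 21.1 CPM, a log2 ratio of -0.49 [-0.59, -0.40]. Just outside that cut, 16 and 14 barcodes had 15 to 19 globin UMIs, and just inside it 12 and 15 had 20 to 25. The 10 highest barcodes alone held 19.5% and 30.6% of globin UMIs. Without them the log2 ratio over all barcodes was -1.15. Globin exceeded 5% of a barcode's UMIs in 24 and 9 barcodes and 30% in 3 and 0, with a maximum of 57.7% and 27.9%. The globin-rich barcodes as a group were deep, with a median of 11238 and 10379 UMIs. Those with more than 5% globin were shallower, with a median of 1456.5 and 4292 UMIs.

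Each globin-rich barcode mostly held either an embryonic or an adult mix. The adult share of beta-type UMIs was computed in the 144 and 91 globin-rich barcodes with at least 10 beta-type UMIs. It was under 30% in 60 and 35 of them (embryonic mix) and at least 90% in 58 and 40 (adult mix), and 26 and 16 lay between. Bins from 30% to 90%, each 10 points wide, held 3 to 6 barcodes in the Foxq1flox/flox library and 1 to 5 in the Foxq1iECKO library, while the bin from 90% to 100% held 58 and 40. Within 5 points of the 30% cut lay 6 and 7 barcodes, and within 5 points of the 90% cut 3 and 5. The embryonic mix was 41.7% [33.5, 50.2] and 38.5% [28.4, 49.2] of these barcodes, so the libraries did not differ by size in the division. These kinds are ranges of a share, not cell types.

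**Figure D2:**
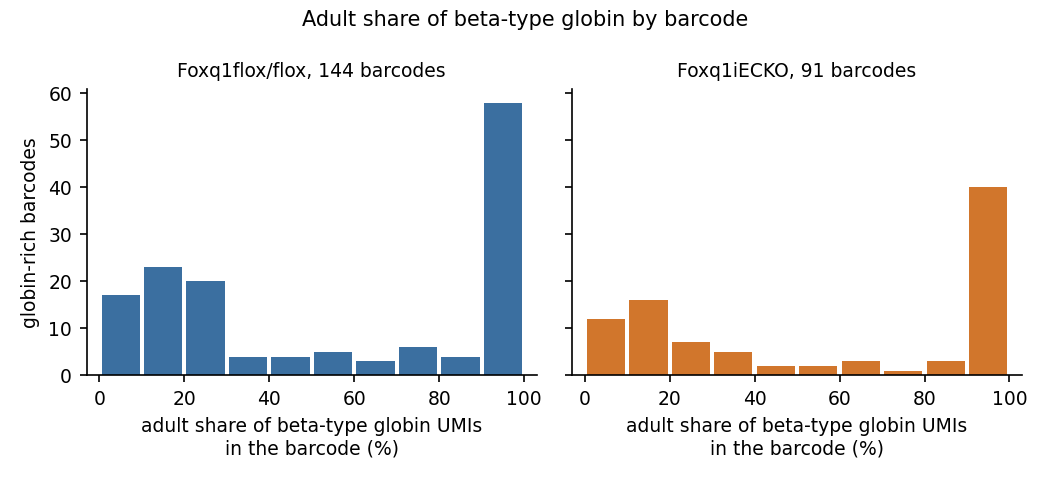
Number of globin-rich barcodes (vertical axis) by the adult share of their beta-type globin UMIs in percent (horizontal axis, bins of 10 points), for each library. Both libraries have barcodes piled below 30% (60 and 35) and from 90% (58 and 40), with few between.

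The alpha-type genes, which the kinds were not chosen on, divided the same barcodes. In the embryonic mix Hba-x was detected in 60 of 60 and 32 of 35 barcodes and gave 24.4% [23.2, 25.7] and 24.0% [22.0, 26.1] of alpha-type UMIs. In the adult mix it was detected in 5 of 58 and 0 of 40 barcodes and gave 0.162% [0.060, 0.353] and 0% of alpha-type UMIs, with an upper bound of 0.176% in the latter. Barcodes between the cuts had intermediate values, 13.5% and 17.5%. Adult alpha transcripts were present in both kinds: Hba-a2 alone was 32.3% and 33.1% of globin UMIs in the embryonic mix and 35.7% and 39.0% in the adult mix.

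The balance of chains as counted also differed between the kinds, under the limit on Hba-a1 and Hba-a2 reads given above. Alpha-type UMIs were 51.1% [50.1, 52.2] and 51.9% [50.2, 53.6] of globin UMIs in the embryonic mix and 40.3% [39.3, 41.3] and 44.9% [43.5, 46.4] in the adult mix. The adult beta genes were used in different proportion. Hbb-bt gave 68.3% [64.6, 71.8] and 62.0% [55.5, 68.2] of adult beta UMIs in the embryonic mix, and 40.7% [39.4, 42.0] and 38.5% [36.7, 40.5] in the adult mix. In counts, the embryonic mix held 465 Hbb-bt and 216 Hbb-bs UMIs in the Foxq1flox/flox library and 147 and 90 in the Foxq1iECKO library, while the adult mix held 2219 and 3236, and 988 and 1575. The order of the pair was therefore opposite in the kinds, in each library. The intervals do not take in differences between barcodes.

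Hbb-y and Hbb-bh1 are part of the share that chose the kinds, so their levels in them are a description only. Hbb-bh1 was detected in 26 of 60 and 10 of 35 barcodes of the embryonic mix.

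**Figure D3:**
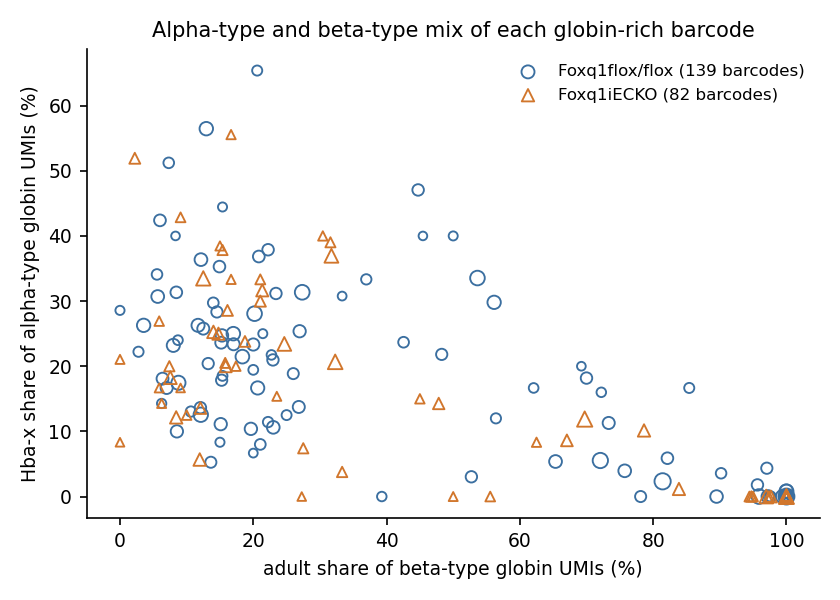
Each point is a globin-rich barcode with at least 10 alpha-type and 10 beta-type UMIs. The horizontal axis is the adult share of its beta-type UMIs and the vertical axis the Hba-x share of its alpha-type UMIs, both in percent, and larger points have more globin UMIs. Points near the right edge lie at or near 0% Hba-x, and points at the left lie around the pooled share of 24.4% and 24.0%.

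The pooled mix varied with the amount of globin in a barcode. In barcodes with 1 or 2 globin UMIs, adult genes gave 58.5% [53.7, 63.1] and 61.6% [54.9, 68.0] of beta-type UMIs, and in those with 3 to 19 they gave 51.5% [47.6, 55.3] and 52.7% [47.9, 57.4]. In barcodes with 100 or more they gave 63.5% [62.6, 64.5] and 65.8% [64.3, 67.2]. Alpha-type genes gave 51.5% [48.8, 54.1] and 55.6% [52.5, 58.7] of globin UMIs at 3 to 19, against 44.7% [44.0, 45.4] and 47.8% [46.7, 49.0] at 100 or more. The pools with 3 to 19 therefore lay apart from the richest barcodes in both shares, though by less than 1.5-fold. Hba-x was 5.70% and 6.48% of globin UMIs in barcodes with 1 or 2, and 5.99% and 5.62% in those with 100 or more.

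Cells were clustered with the globin genes removed, and clusters were named from marker lists without globins. No cluster met the rule for erythroid cells, in the clustering used here or in any of 5 other settings: the most erythroid markers at the naming level in any cluster was 2, in the megakaryocyte-like cluster. Of the 15 listed markers Ahsp, the alpha-globin chaperone, has no row under that symbol in the matrices, and Cldn13 had 0 UMIs. The globin transcripts were instead found mainly in cells of endothelial-like clusters. These clusters had 11 or 12 of 12 endothelial markers at the naming level.

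The endothelial-like class held 2448 and 1699 cells (18.3% and 13.5% of those used) and 71.4% and 67.6% of the globin UMIs of all cells used. Its globin level was 913 [899, 928] and 650 [635, 665] CPM, the highest of the classes with at least 50 cells in both libraries, with a log2 ratio of -0.49 [-0.53, -0.45], which does not reach the size rule. A globin UMI was seen in 15.5% and 11.7% of these cells. When cells were thinned to 1000 UMIs, the share was 8.29% [7.23, 9.46] and 6.53% [5.40, 7.81], against 1.01% [0.62, 1.56] and 0.924% [0.479, 1.61] of neuron-like cells, a class that should not make these globins. The unthinned shares in neuron-like cells were 2.64% and 2.62%, at median depths of 3265 and 3302 UMIs, beside 4457 and 4137 in the endothelial-like class. Globin-rich cells were 101 (4.13%) and 49 (2.88%) of the endothelial-like cells. Without the globin-rich cells the level was 60.5 and 57.2 CPM, a log2 ratio of -0.08 [-0.23, 0.07].

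Member by member in endothelial-like cells, 1 of 7 was past the size rule, against 2.3% of 13065 genes measured there. That member was Hbb-y, at 201 and 116 CPM, a log2 ratio of -0.79 [-0.88, -0.70]. Hba-x was at 59.8 and 42.1 CPM, Hba-a2 at 298 and 218, Hbb-bt at 132 and 95.6 and Hbb-bs at 167 and 134, with log2 ratios from -0.51 for Hba-x to -0.33 for Hbb-bs. Adult genes gave 59.0% [57.9, 60.01] and 65.3% [63.7, 66.8] of beta-type UMIs. The total rested on few cells: without the 10 highest barcodes of each library the log2 ratio of the summed level was -0.78, past the size rule. With the globin genes left in the clustering the log2 ratio was 0.13. Most globin-rich cells then lay in a cluster outside this class, so that value describes only the cells left in it.

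The 3 endothelial-like clusters differed in globin content and in their share of each library. Cluster 1, led by Tmem255a, Cyp1a1 and Tm4sf1, had the most, 1168 and 767 CPM, in 956 and 782 cells. Cluster 0, led by Spock2, Slco1c1 and Htra3, had 569 and 231 CPM in 896 and 462 cells. Cluster 12, led by Gja5, Aplnr and Thsd1, had 840 and 845 CPM in 596 and 455 cells. In the Foxq1flox/flox library a single barcode gave 654 of the 1325 globin UMIs of cluster 12. It had 1133 UMIs in all, an adult mix and 4 erythroid markers. In the Foxq1iECKO library a single barcode gave 394 of the 1002 globin UMIs of cluster 12. The log2 ratio was -1.30 [-1.43, -1.18] in cluster 0 and -0.61 [-0.65, -0.56] in cluster 1, both lower by size. In cluster 12 it was 0.008 [-0.11, 0.13]. Globin-rich cells lay mostly in cluster 1, which held 67.3% and 81.6% of them but 35.8% and 43.1% of the endothelial-like cells without globin.

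In the other classes the level was lower and often rested on few cells. The megakaryocyte-like cells, 74 and 50 in number, had 266 [216, 325] and 394 [321, 477] CPM. Of these cells 37.8% and 42.0% had a globin UMI, with at most 11 and 26 in a cell. In the Foxq1iECKO library 2 globin-rich cells held 46 of the globin UMIs, and without them the level was 226 CPM and the log2 ratio turned from 0.56 to -0.24 [-0.73, 0.25]. The mixed endothelial-pericyte cluster had 403 and 153 CPM, with 12 and 18 globin-rich cells, and 27.5 and 22.6 CPM without them. Macrophage-like cells had 140 and 166 CPM, a log2 ratio of 0.24 [0.13, 0.36], with 6 and 13 globin-rich cells. Without those they had 27.7 and 23.2 CPM, a log2 ratio of -0.26 [-0.53, 0.02].

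Larger ratios were found in classes with few or no globin-rich cells. Fibroblast-like cells had 60.3 and 14.98 CPM with 3 and 1 globin-rich cells, and 11.3 and 7.79 CPM without them. Radial glia-like cells had 92.0 and 5.50 CPM with 2 and 0 globin-rich cells, lymphatic endothelial-like cells 164 and 3.62 CPM with 2 and 0, and the unnamed clusters 360 and 37.4 CPM with 4 and 1. Without the globin-rich cells the unnamed clusters, radial glia-like and lymphatic endothelial-like cells were still lower by size in the Foxq1iECKO library, and fibroblast-like cells (log2 ratio -0.54) were not past the size rule. Radial glia-like cells then had 18.6 and 5.50 CPM (log2 ratio -1.75), lymphatic endothelial-like cells 10.4 and 3.62 (-1.52), and the unnamed clusters 18.1 and 6.995 (-1.37). Pericyte-like cells, with 0 globin-rich cells in either library, had 17.5 and 6.97 CPM, a log2 ratio of -1.33 [-2.64, -0.14] from 21 and 9 UMIs. Neuron-like cells (9.49 and 8.43 CPM), cartilage-like cells (8.55 and 5.86) and other leukocyte-like cells (13.7 and 12.2) had low levels in both libraries, with intervals that overlapped one another. Neural crest-like cells had 0 globin UMIs in both libraries, with upper interval limits of 27.5 and 9.72 CPM. The order of the classes matched between the libraries only at the top: in the Foxq1flox/flox library the mixed and the unnamed clusters came after the endothelial-like class, and in the Foxq1iECKO library the megakaryocyte-like and macrophage-like cells did.

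**Figure D4:**
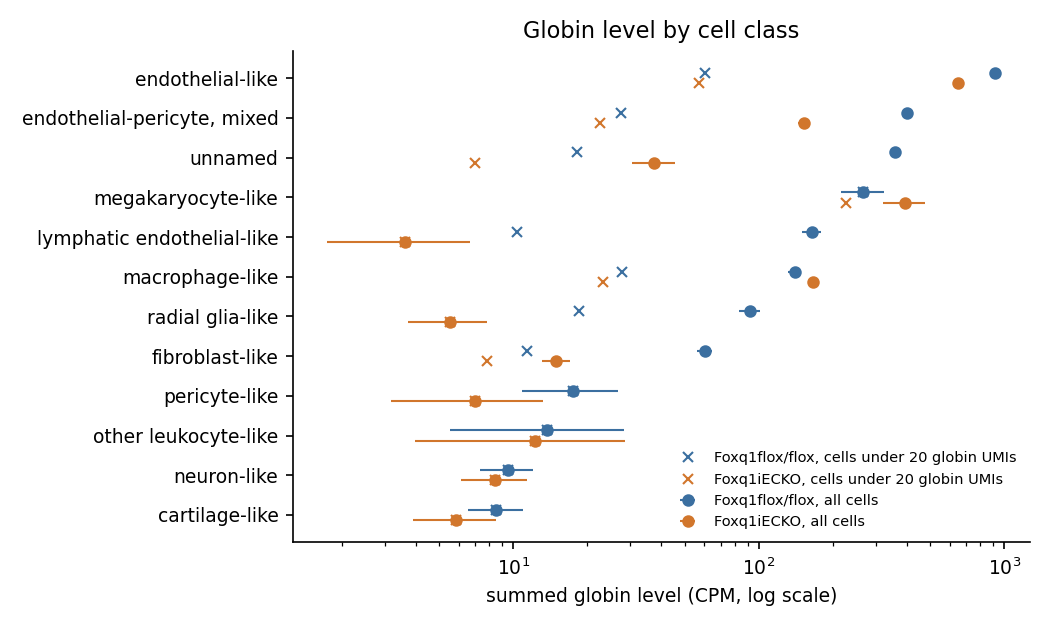
Summed level of the 7 globin genes (horizontal axis, CPM, log scale) in each cell class with at least 50 cells in both libraries. Dots are all cells of the class with 95% counting intervals, and crosses are its cells with fewer than 20 globin UMIs. Endothelial-like cells had the highest level (913 and 650 CPM), which fell to 60.5 and 57.2 CPM without their globin-rich cells.

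Apart from the globins, globin-rich endothelial-like cells differed from those with no globin UMI in genes of the red cell. The erythroid markers other than globins had 217 UMIs in 101 globin-rich cells and 50 in 2069 globin-free cells of the Foxq1flox/flox library, or 166 [145, 190] against 3.77 [2.80, 4.97] CPM. In the Foxq1iECKO library they had 95 UMIs in 49 cells and 13 in 1500, or 150 [122, 184] against 1.46 [0.775, 2.49] CPM. A marker UMI was found in 63 of 101 and 22 of 49 globin-rich cells. Among cells of at least 8000 UMIs, where depth was closer, the summed level was 144 against 3.30 CPM and 105 against 0.968 CPM. The endothelial markers stayed high in the globin-rich cells, at a summed level of 6403 against 7414 CPM and 6012 against 6635 CPM.

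Of 8073 and 8142 genes measured in this comparison (at least 10 CPM in either kind of cell), 2.29% and 2.75% were higher by size in globin-rich cells. The lists overlapped in 40 genes, 21.6% of the 185 and 17.9% of the 224, and 9 of the 40 stood on the lists of red cell genes or erythroid markers. Slc4a1, the band 3 anion exchanger of the red cell membrane, had 66 UMIs in globin-rich and 3 in globin-free cells of the Foxq1flox/flox library. In the Foxq1iECKO library it had 28 and 0. Alas2, the first enzyme of haem synthesis in red cells, had 45 and 0, then 9 and 0. With the globin-free cells set at 3 counts over the group, Slc4a1 was 132-fold higher in the Foxq1iECKO library. Alas2 was then 152-fold and 42.4-fold higher. These folds rest on that floor and are not interval limits. Kel, the Kell blood group protein, Trim10, Slc25a37, the mitochondrial iron importer mitoferrin, and Gpx1, glutathione peroxidase, were also past the size rule in both libraries.

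Some genes were lower in globin-rich cells, where 8.75% and 6.87% of the measured genes were lower by size. In both libraries Tfrc, the transferrin receptor, Slc40a1, the iron exporter ferroportin, and Stab1, a scavenger receptor, were among these, as was Sox6, a repressor of embryonic globin. Slc11a2, an iron importer, was higher by size in the Foxq1flox/flox library, at 26.0 against 16.9 CPM, and was at 9.50 against 14.0 CPM in the Foxq1iECKO library. Summed levels of other markers in globin-rich against globin-free cells were 10.7 against 20.04 and 14.2 against 26.3 CPM for macrophages, and 209 against 98.4 and 72.8 against 73.8 CPM for megakaryocytes. Neuronal markers were at 278 against 203 and 252 against 236 CPM, and fibroblast markers at 312 against 205 and 201 against 225 CPM. By gene, 2 of 3 measured megakaryocyte markers, 2 of 6 of fibroblasts, 2 of 6 of cartilage and 1 of 3 of neurons were higher by size in the Foxq1flox/flox library, and 0 of these in the Foxq1iECKO library. Of the same lists, 2 fibroblast, 1 cartilage and 1 neuronal marker were lower by size in the Foxq1flox/flox library. In the Foxq1iECKO library 3 of 4 measured cartilage markers and 1 of 3 neuronal markers were lower by size. Cartilage markers summed to 115 against 99.7 CPM and to 25.3 against 91.5 CPM. The part of other cell types in the comparison was not tested. The part of doublets was not tested: predicted doublets were 4 of 134 and 10 of 94 globin-rich barcodes that passed the cell filter (2.99% and 10.6%), beside 3.99% and 3.94% of all, and they were removed before clustering.

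**Figure D5:**
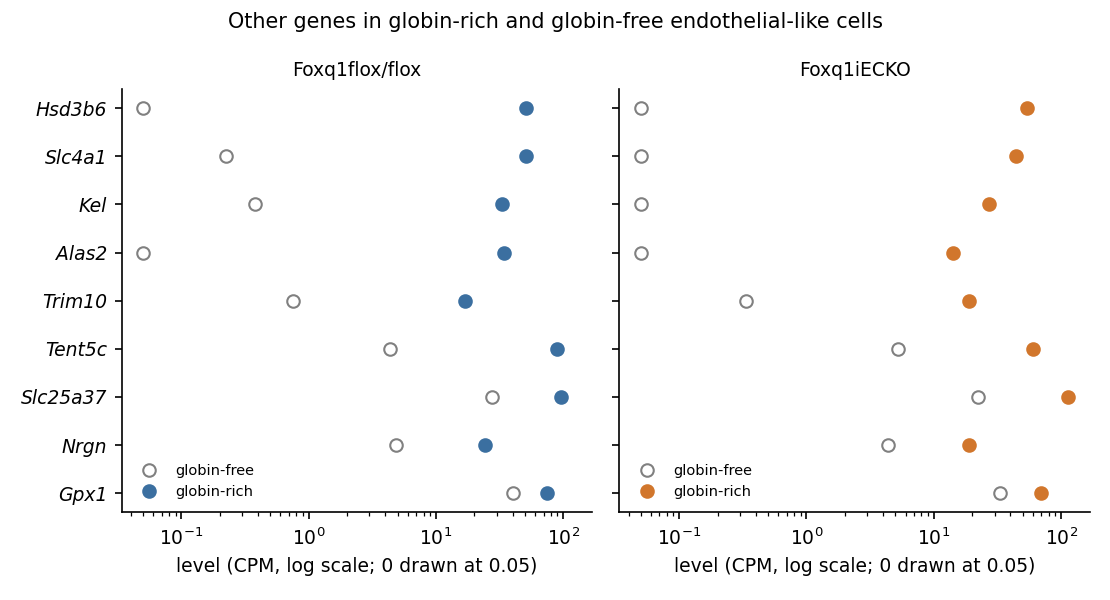
Levels of 9 genes other than globins in globin-rich (filled) and globin-free (open) endothelial-like cells of each library, in CPM on a log scale, with 0 drawn at 0.05. They are 9 of the 12 genes whose intervals lay farthest above equality in both libraries, and Hsd3b6, Slc4a1 and Kel head them.

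Adult-mix and embryonic-mix cells were also set against each other within the endothelial-like class, 36 against 39 cells and 21 against 18, on genes other than globins. Of 8150 and 8370 genes, 516 and 482 (6.33% and 5.76%) were past the size rule in either direction. Only 38 were called the same way in both libraries, 25 lower and 13 higher in the adult mix. Most calls of each library were therefore not repeated in the other. Among the genes lower in the adult mix were Slc4a1, at 21.3 against 85.8 CPM and 20.7 against 108, and Kel, at 7.75 against 66.5 CPM and 6.91 against 48.9. Ermap, a red cell membrane adhesion protein, had 0 against 11 and 0 against 7 UMIs. With the adult mix set at the floor of 3 counts it was 4.06-fold and 3.30-fold lower, which are not interval limits. Tal1, a transcription factor of blood and endothelial cells, and Fth1, ferritin heavy chain, were lower too. Median depth moved with the kind, 14805 against 10969 UMIs and 14429 against 9130, and its part was not tested. Collagen genes Col1a1 and Col1a2, markers of fibroblasts, were lower in the adult mix as well, Col1a1 at 7.75 against 144 and 20.7 against 83.2 CPM. Their part was not tested either.

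In place of the erythroid cluster that was not found, cells with UMIs of at least 3 of the 15 erythroid markers were pooled. This gate held 51 and 20 cells, 0.381% [0.284, 0.501] and 0.159% [0.097, 0.245] of those used, a log2 ratio of -1.26 [-2.09, -0.49], lower by size. Of these cells 42 and 16 had globin UMIs and 32 and 12 were globin-rich, with medians of 129 and 162 globin UMIs. They were spread over endothelial-like (24 and 10), megakaryocyte-like (16 and 6), unnamed (7 and 2) and macrophage-like clusters (2 and 2). The gate is a range of a per-cell count that deeper cells reach more easily, and its members' median depth was 8293 and 9621 UMIs.

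The globin level in the gated cells was 16682 and 16299 CPM, a log2 ratio of -0.03, and 0 of 7 members were past the size rule, where 14.7% of 7119 genes were. The individual ratios ran from -0.30 for Hbb-bt, at 2959 and 2399 CPM, to 0.44 for Hba-a1, at 806 and 1094 CPM. Hba-a2, at 5641 and 5671 CPM, and Hbb-y, at 2581 and 2804 CPM, lay between. Adult genes gave 70.7% [69.4, 72.0] and 65.0% [62.7, 67.2] of beta-type UMIs, Hba-x 12.1% [11.02, 13.2] and 12.9% [11.3, 14.6] of alpha-type UMIs, and alpha-type genes 43.9% [42.9, 45.0] and 47.7% [46.0, 49.3] of globin UMIs. The near equality of the summed level rested on few cells: without the 10 highest barcodes of each library the log2 ratio was -0.76, and with a gate of at least 4 markers, 24 and 7 cells, it was -0.72. At 4 markers the adult share was 77.2% and 39.2%.

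The genes around the globins in the same gated cells are described by lists, whose members counted as measured at 10 CPM or more in either library. At that level 11.6% of 9111 genes were past the size rule in either direction. At the level of 20 CPM used for the members, of the 1045 genes past the size rule, 714 were higher and 331 lower; scaling by TMM gave 450 and 616, and by DESeq2's size factors 404 and 725, since these lower every ratio by 0.21 and 0.26. The median log2 ratio of all genes was 0.13. Of 13 measured genes of haem synthesis and iron supply, 1 was higher and 2 lower, with a median of -0.46: Tmem14c, a porphyrin transporter, was at 42.2 and 207 CPM and Slc25a37 at 337 and 198 CPM. Of 10 genes of red cell metabolism, 0 were higher and 4 lower, with a median of -0.52: Hemgn, a nuclear protein of erythroid cells, had 43 and 0 UMIs, and Car2, carbonic anhydrase, was at 858 and 337 CPM. Of 13 genes of the red cell membrane, 0 were higher and 2 lower, among them Slc4a1 at 203 and 125 CPM, with a median of -0.68. Several of these genes, Hemgn and Slc4a1 among them, also served as gate markers.

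Of 10 activators of globin genes in the gated cells, 2 were lower, Gata1 (227 and 140 CPM) and Klf2 (426 and 149 CPM), with a median of -0.26. Gata1, and Epor among the progenitor genes below, also served as gate markers, so the gate was chosen on their UMIs. Of 13 repressors and switching factors of embryonic globin, 3 were higher and 1 lower, with a median of 0.30. The higher ones were Ikzf1 (26.1 and 116 CPM), Myb (36.2 and 111 CPM) and the RNA-binding protein gene Igf2bp1 (62.3 and 154 CPM), and the lower one was Sox6 (46.2 and 4.82 CPM). Bcl11a, the best known of these repressors, did not pass the size rule. Of 7 erythroid progenitor genes 3 were higher and 2 lower, with a median of 0.19. With 20 cells in the Foxq1iECKO library, a gene's UMIs can come from a single cell. In macrophage-like cells, which take up red cells and haemoglobin, 0 of 11 measured genes for haemoglobin clearance passed the size rule, where 3.58% of 8210 genes did, so the count does not set the list apart. Hmox1, haem oxygenase, was at 1161 and 1444 CPM there, a log2 ratio of 0.31 [0.28, 0.35].

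Across clusters, the genes whose level was most like the summed globin level were Arhgap18, Mtarc2, Gnai2, Prdm1, Tdrd7 and Pecam1, with Pearson correlations of 0.76, 0.74, 0.73, 0.71, 0.71 and 0.71 on log2(CPM + 10) values. The 51 points were 26 clusters in each library, where they had at least 50 cells, so that points share libraries and cell classes. The 6 genes were the highest of 3797 ranked. Pecam1 encodes CD31, the protein that the cells were sorted on.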

How the data were processed

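The authors deposited a count matrix per library, with the UMIs of each gene in each barcode and no normalization. Per the submitters' processing notes, fastp 0.24.0, STARsolo 2.7.11b and build mm10 were used; how multi-mapping reads were treated was not given in the sources used here. Members were rows of both matrices whose symbol equals a globin name. Shares and levels over all barcodes used every barcode deposited, each of at least 500 UMIs. For classes, a cell needed 200 genes or more, 1000 UMIs or more and no more than 20% mitochondrial UMIs (13935 and 13108), and 556 and 516 doublets called by Scrublet in scanpy 1.11.5 (expected 8%) were removed. Globin genes were taken out before clustering both libraries together (2000 variable genes, 30 components, 20 neighbours, Leiden resolution 1). A class name needed 3 markers at 50 CPM and 2-fold over the other cells. As no cluster was erythroid-like, a gate of at least 3 of 15 non-globin erythroid markers stood in for the planned class. Intervals were exact Poisson for levels, Clopper-Pearson for shares and conditional binomial for ratios. Named were all members, up to 4 genes of each list (those past the size rule first, then the most abundant), the genes past the rule in both libraries in comparisons of globin-rich cells, and the 6 genes most like the summed globins. Bcl11a and Hmox1 and the genes leading clusters were chosen after their values were seen. Members, lists and kinds were chosen with earlier results of these data known. Some genes that this rule names are not reported here. The size rule was also tested on simulated counts. Alternatives covered cell filters, doublets, clustering, gates and scaling (edgeR 4.0.16 TMM, DESeq2 1.42.0 size factors, R 4.3.3), and no count model was fitted.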

Additional observations from a re-analysis of the deposited data

Results flagged for a closer look

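In 3 clusters the globin level moved opposite to that of the endothelial-like cells (log2 ratio -0.49), and this difference was not tested. In fibroblast-like cluster 8 the log2 ratio was 3.24, from 8 UMIs in 293 cells to 120 UMIs in 463 cells, of which 107 were in a single barcode. In cluster 18, which is unnamed, it was 2.29, from 33 to 94 UMIs, of which 83 were in a single barcode. In macrophage-like cluster 11 it was 1.62, from 61 to 174 UMIs, with 0 and 3 globin-rich cells.

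Globin transcripts were also present in barcodes outside the cell classes. Barcodes that did not pass the cell filter, 12.01% and 13.2% of all, held 2075 and 734 globin UMIs (8.48% and 6.07% of the total), and 14 and 6 of them were globin-rich. Predicted doublets, 3.51% and 3.42% of barcodes, held 564 and 858 globin UMIs (2.31% and 7.10%).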

How the results depend on the processing

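Of 61 recomputed values with a counting interval, 37 stayed within that of the reported value and 24 moved further. Among these results only the gated share of cells and the level over all barcodes were past the size rule, and neither changed sign. Results short of the rule did change sign in some settings, as given below. All 14 recomputed counts stayed within 1.5 times the reported one, although scaling turned the split of genes in the gate from 714 higher and 331 lower to 404 and 725. In the gated cells the log2 ratio of the globin level (-0.03) was 0.12 with at least 500 genes, -0.10 with at least 500 UMIs, 0.025 with doublets kept, -0.24 with TMM, -0.30 with DESeq2's size factors, -0.36 and -0.72 with gates of 2 and 4 markers, and -0.76 without the 10 highest barcodes. That of the adult beta share (-0.12) was 0.12 and -0.98 with these gates. That of the Hba-x share (0.10) was 0.34 with doublets kept, -0.32 and 0.83 with the gates and -0.30 without the 10 highest barcodes, and that of the alpha share (0.12) was 0.30 with 4 markers. In endothelial-like cells the level (-0.49) was -0.43 with at least 500 genes, -0.40 with at least 500 UMIs and with doublets kept, 0.13 with globin genes in the clustering, -0.54 without gated cells and -0.78 without the 10 highest barcodes. Over all barcodes (-0.94) it was -1.15 without those, -0.98 in cells used only and -0.90 with TMM. The causes were not tested. Gates of 2 and 4 markers and removal of the highest barcodes were chosen after seeing the data. Clustering settings gave no value for the gate, which does not use clusters. No paired analysis was possible because each genotype has 1 library, and for the same reason no library could be left out.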

Other observations

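When the globin genes were left in the clustering, 1 of the 26 clusters, with 257 cells, 164 and 93 from the libraries, held most of the globin. It held 86.5% and 75.6% of the globin UMIs of all cells used, and 120 of 130 and 69 of 84 globin-rich cells. Each of its cells had at least 3 globin UMIs, with medians of 76 and 40. All 12 endothelial markers but 1 erythroid marker stood at the naming level in it, and its leading genes other than globins included Slc4a1, Sox18, Ctla2a and Tmem255a. In the clustering without globins 141 and 67 of these cells were endothelial-like. The globin level of the endothelial-like cells that remained was 39.1 and 42.7 CPM. A class formed on the globins themselves is no test of them.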
